A study of Mus musculus with 36 samples.

Results

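The *Dll4GOF;Tie2-Cre* experiment is 1 of the 5 heart RNA-seq experiments of the series and holds 7 of its 36 libraries. It was chosen by its genotype and table, and all 13737 genes of that table are described. The experiment had 3 libraries of E15.5 ventricles from embryos carrying the *Dll4GOF* allele and *Tie2-Cre* (labelled Delta4GOF;Tie2-Cre, libraries 2, 3 and 4). They were set against 4 libraries of E15.5 WT ventricles (libraries 1 to 4). Each library was polyA RNA of a pool of 3 embryos. *Dll4GOF* is a knock-in at *Rosa26* in which a CAG promoter, a floxed NeoSTOP cassette and a Myc-tagged *Dll4* cDNA with IRES-eGFP follow each other. It came from 1 clone of 129-derived ES cells, and embryos carried a single copy. *Tie2-Cre* removes the stop cassette in endothelium, endocardium included, and it is known also to act in blood cells. The labels call the controls WT and name no allele in them.

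Dll4 is a transmembrane ligand of Notch receptors. When it binds a receptor on a neighbouring cell, proteolysis frees the receptor's intracellular domain, which joins the DNA-binding protein Rbpj and switches on targets such as the *Hey* and *Hes* repressors. In growing vessels Dll4 restrains tip cell behaviour and favours an arterial fate, and in the endocardium Notch signals to the overlying trabecular myocardium. The comparison addresses what an extra copy of *Dll4* in these lineages does to the ventricular transcriptome. Whole ventricles were sequenced, in which endothelium is a minority, so that fewer cells of a type and less RNA per cell cannot be told apart.

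Levels are the deposited normalized counts, which are CPM of a normalized library size. Counts recovered per library ranged from 17527883 to 19876031 in *Dll4GOF;Tie2-Cre* ventricles and from 14392366 to 18828254 in WT. All 5 ventricular markers (*Myl2*, *Myh7*, *Irx4*, *Myl3*, *Lbh*) were abundant, with summed levels of 24060 to 26811 in *Dll4GOF;Tie2-Cre* and 26317 to 27341 in WT. Summed endothelial markers (*Pecam1*, *Cdh5*, *Kdr*, *Erg*) were 716 to 749 in *Dll4GOF;Tie2-Cre* and 762 to 772 in WT, without overlap, and the part of this in the values of vascular genes was not tested. Of these markers only *Kdr* lay below WT in every library. Summed over the 30 genes of the pan-endothelial list, the groups overlapped, at 2628 to 2735 in *Dll4GOF;Tie2-Cre* and 2687 to 2748 in WT. Markers of atrium (4 of 4 measured, 331 to 379 in *Dll4GOF;Tie2-Cre* and 265 to 372 in WT), lung (*Sftpc*) and neural cells (0 of 2 listed) were also looked up. Among the atrial markers *Myl7* was at 305 to 346 in *Dll4GOF;Tie2-Cre* and 238 to 329 in WT, and *Sftpc* was at 1.56 to 8.15 in *Dll4GOF;Tie2-Cre* and 2.01 to 11.3 in WT. Summed over the 17 genes of the atrium and pacemaker list, the groups did not overlap. These sums were 3011 to 3254 in *Dll4GOF;Tie2-Cre* and 2522 to 2759 in WT. The pools differed in their sex-linked genes. *Xist*, which is transcribed from the inactive X chromosome of females, was 369, 405 and 135 in *Dll4GOF;Tie2-Cre*, against 331, 451, 0.146 and 0.346 in WT. The summed level of *Ddx3y*, *Eif2s3y*, *Kdm5d* and *Uty*, which lie on the Y chromosome, was 3.29, 2.45 and 88.5 in *Dll4GOF;Tie2-Cre*, against 90.1, 2.31, 167 and 172 in WT. The Y-linked sum was thus near 0 in *Dll4GOF;Tie2-Cre* libraries 2 and 3 and WT library 2, *Xist* was near 0 in WT libraries 3 and 4, and *Dll4GOF;Tie2-Cre* library 4 and WT library 1 had both. With the Y-linked level as a covariate, a fit chosen after the data were seen, 0 genes were called. The fit without it also called 0, so this count does not show the part of sex in the values. The sexes were not balanced between the groups, so sex and genotype cannot be fully told apart.

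*Dll4* itself, at chromosome 2 from 119325784 to 119335962 on GRCm38, had normalized counts of 40.00, 38.5 and 42.7 in *Dll4GOF;Tie2-Cre*, against 33.2, 32.3, 31.7 and 35.2 in WT. Every *Dll4GOF;Tie2-Cre* library lay above every WT library, at 121%, 116% and 129% of the WT mean. The means were 40.4 ± 2.15 CPM in *Dll4GOF;Tie2-Cre* (SD, n = 3) and 33.1 ± 1.53 CPM in WT (SD, n = 4), a log2 fold change of 0.28 (95% interval 0.15 to 0.42, standard error 0.061). Over all genes the adjusted p was 0.354 by limma (unadjusted p 0.000665), and an exact two-sided permutation test gave p = 0.0571, the smallest that 3 libraries against 4 allow. *Dll4* was therefore not called. Reads of the transgene's cDNA and of the endogenous gene are counted together in these values.

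*Gt(ROSA)26Sor*, the noncoding transcript of the *Rosa26* locus into which the transgene was placed (chromosome 6, 113067428 to 113077333), had a larger fold difference. Its level was 4.34, 4.55 and 3.51 in *Dll4GOF;Tie2-Cre*, against 6.93, 7.66, 6.63 and 8.03 in WT. The *Dll4GOF;Tie2-Cre* libraries stood at 59.3%, 62.3% and 48.0% of the WT mean and did not overlap WT (log2 fold change -0.76, 95% interval -1.03 to -0.48, limma adjusted p = 0.211). Both the transgene's gene and its host locus thus separated the libraries as labelled. *Gt(ROSA)26Sor* is antisense to and overlaps *Thumpd3*, and without stated strand counting reads in the overlap cannot be assigned. *Thumpd3*, a tRNA methyltransferase, had 22.9, 25.9 and 24.2 in *Dll4GOF;Tie2-Cre*, against 21.1, 23.7, 22.98 and 25.4 in WT. Among the other genes listed around *Rosa26*, *Setd5* (a chromatin regulator, -0.13), *Jagn1* (-0.17) and *Srgap3* (a regulator of small GTPases, -0.46) were lower in all 3 libraries than in any WT library, and *Tada3* (a subunit of histone acetyltransferase complexes, 0.15) was higher in all 3. Of the 14 measured genes of this region, *Gt(ROSA)26Sor* included, 4 lay below and 1 above WT in every library. Over all genes the shares were 4.39% and 4.56%. None of the 14 was called, and the cause of the differences was not tested.

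**Figure D1:**
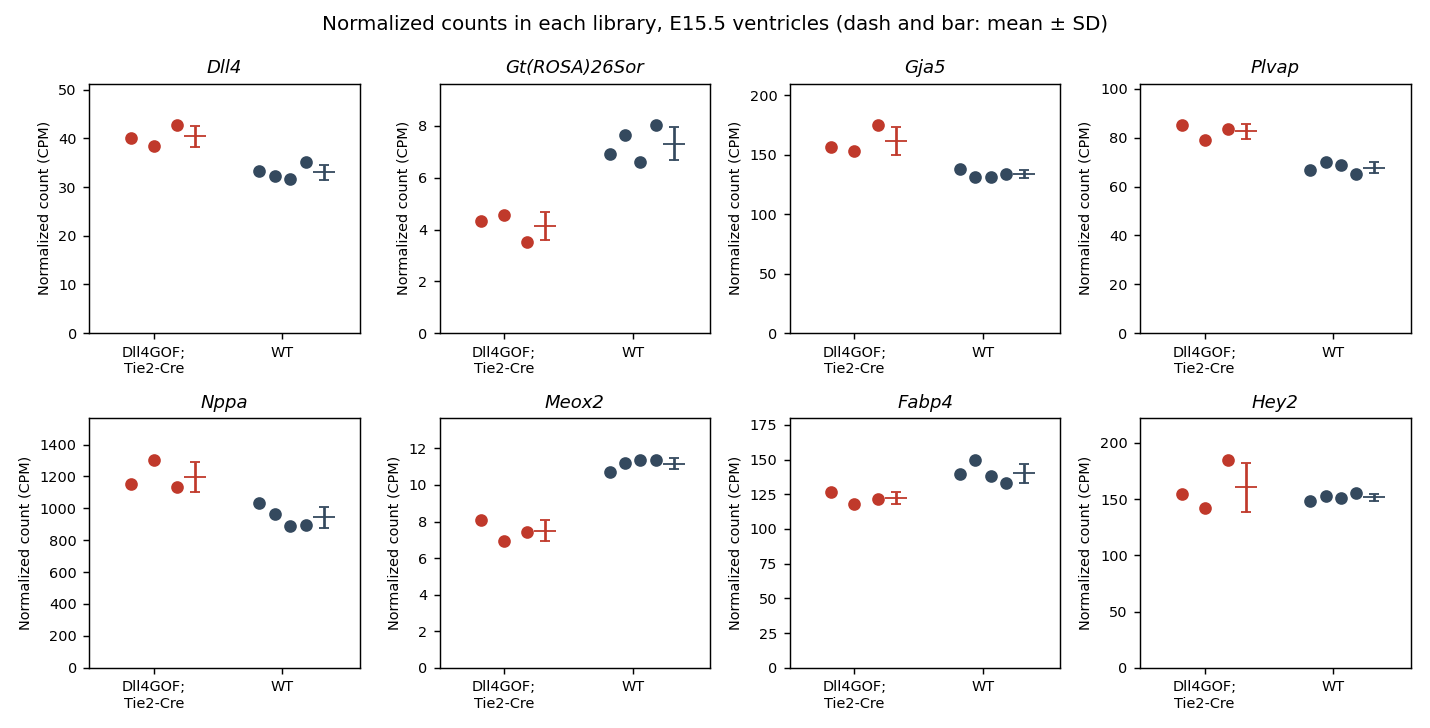
Normalized counts (CPM, from 0) of 8 genes in each of the 3 *Dll4GOF;Tie2-Cre* libraries (left) and 4 WT libraries (right), with mean ± SD. *Dll4*, *Gja5*, *Plvap* and *Nppa* lie above all WT libraries and *Gt(ROSA)26Sor*, *Meox2* and *Fabp4* below them, while *Hey2* overlaps.

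No gene passed the threshold. Of 13737 genes tested with limma at an adjusted p under 0.05, 0 were called (0%), and the smallest adjusted p was 0.211. At an unadjusted p under 0.05 there were 557 genes with higher levels in *Dll4GOF;Tie2-Cre* (4.05% of all) and 723 with lower levels (5.26%). In 627 genes (4.56%) every *Dll4GOF;Tie2-Cre* library lay above every WT library, and in 603 (4.39%) below. The 95% interval of a gene's log2 fold change reached a median of 0.17 to either side of its estimate (10th to 90th percentile, 0.10 to 0.42). The count of calls depended on single libraries. Without *Dll4GOF;Tie2-Cre* library 3 it was 29, all lower and led by long genes such as *Ryr2*, *Dst* and *Macf1*. It was 1 without library 2, 2 without library 4, 1 without WT library 1, and 0 without any of the other 3 WT libraries.

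**Figure D2:**
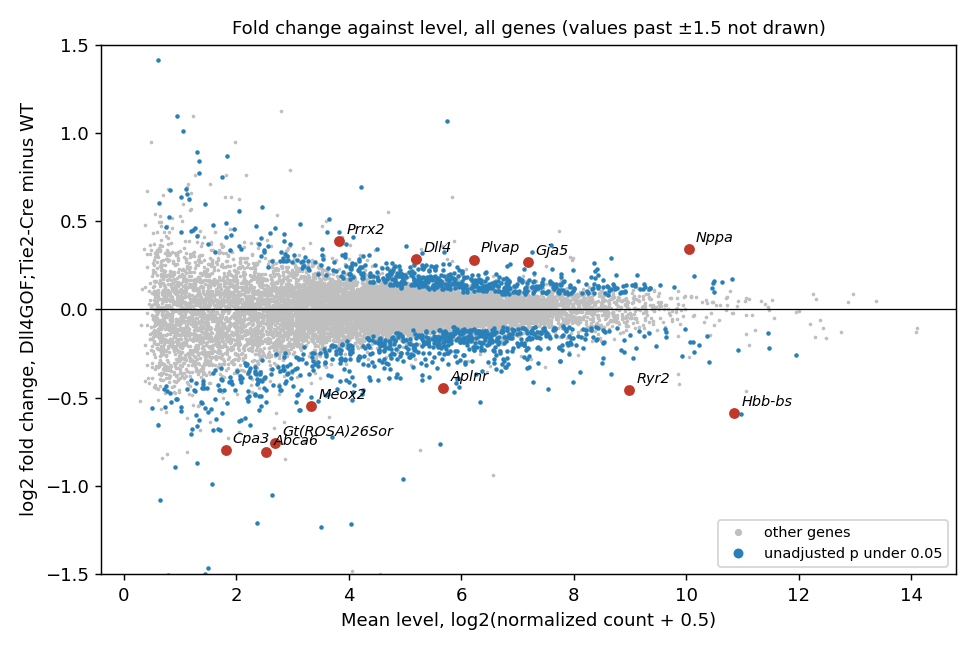
Fold change (log2, *Dll4GOF;Tie2-Cre* minus WT) against mean level (log2 of the normalized count + 0.5) for all genes, with genes at an unadjusted p under 0.05 in blue and named genes in red; 14 genes past 1.5 on either side are not drawn. Most genes lie within 0.5 of no change, and so do *Nppa* (0.34), *Gja5* (0.27), *Plvap* (0.28) and *Dll4* (0.28).

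On the higher side the smallest p belonged to *Plvap*. This gene, which encodes the diaphragm protein of endothelial caveolae and fenestrae and is abundant in endocardium, had 85.1, 79.1 and 83.4 in *Dll4GOF;Tie2-Cre*, against 66.9, 70.2, 68.99 and 65.2 in WT. The groups did not overlap (log2 fold change 0.28, standard error 0.048, adjusted p = 0.211). *Gja5*, the connexin of arterial endothelium and of trabecular and conducting myocardium, had 156, 153 and 175 in *Dll4GOF;Tie2-Cre*, against 138, 131, 131 and 133 in WT (log2 fold change 0.27, standard error 0.051, adjusted p = 0.269). Library 4 of *Dll4GOF;Tie2-Cre* was the highest of the 7. *Nppa*, the atrial natriuretic peptide precursor and a trabecular marker in the fetal ventricle, had 1154, 1303 and 1133 in *Dll4GOF;Tie2-Cre*, against 1030.3, 963, 891 and 896 in WT (log2 fold change 0.34, adjusted p = 0.269). *Cited1*, a transcriptional co-regulator of trabecular cardiomyocytes, had 158, 181 and 176 in *Dll4GOF;Tie2-Cre*, against 144, 124, 146 and 135 in WT (log2 fold change 0.33, adjusted p = 0.292). The rest of the first 10 were the solute carrier *Slc22a23* (0.25), *Phf23* (0.23), the secreted glutathione peroxidase *Gpx3* (0.26), the splicing factor *Sf3b5* (0.26), the homeobox gene *Prrx2* (0.39) and *Dll4*. All 10 were higher in every *Dll4GOF;Tie2-Cre* library than in any WT library, against 4.56% of all genes. Ranking by p favours such separation, so it adds no support.

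On the lower side the genes with the smallest p included *Meox2*. This gene, which encodes a homeobox factor that in mouse heart capillaries controls fatty acid uptake, had 8.08, 6.95 and 7.45 in *Dll4GOF;Tie2-Cre*, against 10.7, 11.2, 11.4 and 11.4 in WT (log2 fold change -0.55, standard error 0.091, adjusted p = 0.211). The groups did not overlap. *Gt(ROSA)26Sor*, given above, was also among the first 10, with *Fry* (-0.28), the lipid transporter *Abca6* (-0.81), the potassium channel subunit *Abcc9* (-0.21), *Lynx1* (-0.37), the laminin *Lama2* (-0.29), the ryanodine receptor *Ryr2* (-0.45) and the L-type calcium channel *Cacna1c* (-0.25). In all of these every *Dll4GOF;Tie2-Cre* library lay below every WT library, against 4.39% of all genes, which the ranking by p likewise favours.

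Apart from *Dll4*, *Gja5* and *Ncstn*, no gene of the 4 Notch lists separated the groups. Over all genes, every *Dll4GOF;Tie2-Cre* library lay above WT in 4.56% and below WT in 4.39%. Of 5 ligand genes measured, *Dll4* alone had every *Dll4GOF;Tie2-Cre* library above WT. *Jag1*, the ligand that opposes Dll4 in sprouting endothelium, was 30.3, 26.2 and 22.8 in *Dll4GOF;Tie2-Cre*, against 26.9, 31.2, 35.8 and 33.3 in WT (log2 fold change -0.26, 95% interval -0.50 to -0.03, adjusted p = 0.502), with overlapping groups. *Dll1* (0.12), *Jag2* (-0.07) and the atypical ligand *Dlk1* (-0.20) also overlapped. The 4 receptors all had negative estimates, from -0.16 for *Notch2* to -0.08 for *Notch1*, and none had a 95% interval that left out 0. Their values overlapped throughout: *Notch1* had 98.01, 117 and 98.1 in *Dll4GOF;Tie2-Cre*, against 106, 102, 112 and 119 in WT, and *Notch4*, the endothelial receptor, had 51.2, 47.8 and 42.5 in *Dll4GOF;Tie2-Cre*, against 49.3, 51.9, 53.6 and 48.2 in WT.

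Of 16 Notch targets measured, 8 had positive and 8 negative estimates, with a median log2 fold change of 0.0048 against 0.00 over all genes. *Gja5* alone was apart from WT, against 4.56% of all genes above WT in every library and 4.39% below. *Hey1*, the endothelial repressor most tied to Dll4 signalling, had 23.5, 19.04 and 27.6 in *Dll4GOF;Tie2-Cre*, against 20.4, 19.5, 23.3 and 22.3 in WT (95% interval -0.14 to 0.36). *Hey2*, abundant in compact myocardium and arterial endothelium, had 155, 142 and 185 in *Dll4GOF;Tie2-Cre*, against 148, 152, 151 and 155 in WT (95% interval -0.09 to 0.23). Intervals of *Heyl* (-0.18 to 0.12), *Hes1* (-0.18 to 0.26) and *Nrarp*, a feedback inhibitor of Notch (-0.16 to 0.25), were of similar width. *Efnb2*, the arterial ephrin, had 76.1, 75.8 and 63.8 in *Dll4GOF;Tie2-Cre*, against 70.7, 79.6, 81.4 and 74.98 in WT (log2 fold change -0.10, 95% interval -0.25 to 0.06). Among 22 genes of ligand and receptor processing and Notch transcription, 1 was higher in every library than in WT, near the 4.56% of all genes. It was the gamma-secretase subunit *Ncstn* (131, 140.2 and 136 in *Dll4GOF;Tie2-Cre*, against 123, 129, 124 and 128 in WT). The fringe glycosyltransferase *Mfng* had 14.9, 12.54 and 16.4 in *Dll4GOF;Tie2-Cre*, against 15.4, 14.2, 12.7 and 13.8 in WT.

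**Figure D3:**
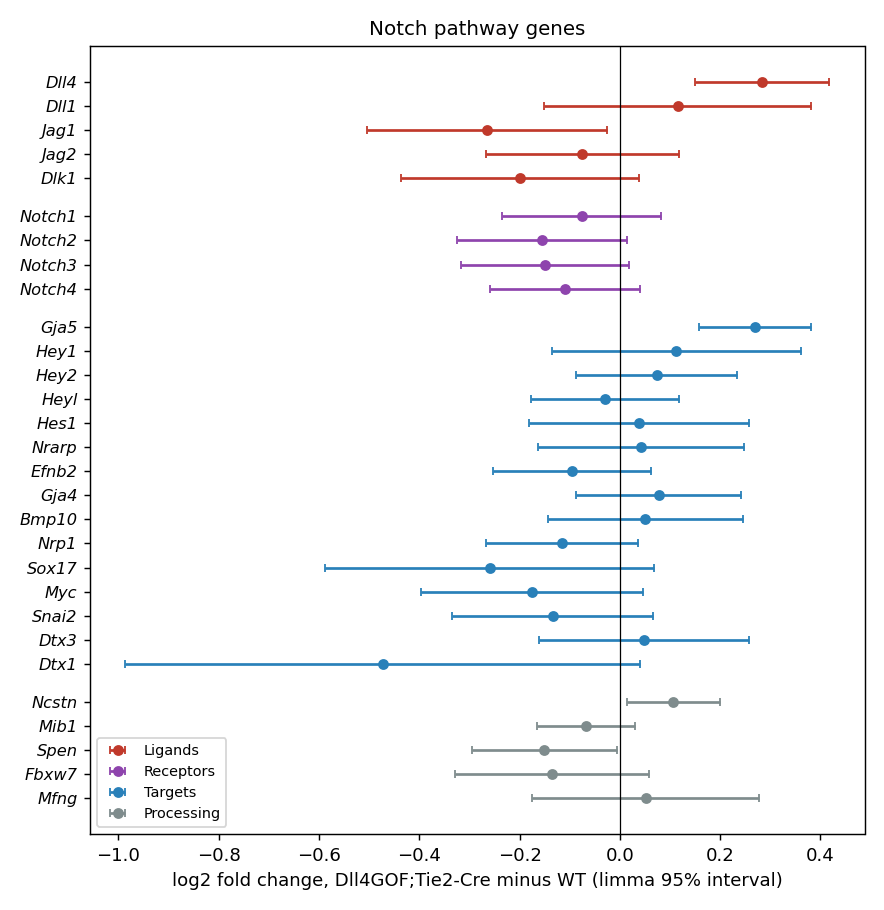
Log2 fold changes (*Dll4GOF;Tie2-Cre* minus WT, points) with limma 95% intervals (bars) of Notch ligands, receptors and selected targets and processing genes. *Dll4*, *Gja5* and *Ncstn* lie to the right of 0 with their whole intervals, *Jag1* and *Spen* to the left, and intervals of all *Hey* and *Hes* genes include 0.

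Promoters are shown for the Notch ligand and the Notch target that stood apart, *Dll4* and *Gja5*, and for *Hey2*, the *Hey* gene with the highest level, since Rbpj binds the core TGGGAA. The *Dll4* values include reads of the transgene, which has a CAG promoter of its own. The sequences are RefSeq's on GRCm38.p6, from 250 bases before to 50 after the start, with each TGGGAA and its reverse complement TTCCCA in capitals.
*Dll4* (chr2:119325534-119325833, plus strand): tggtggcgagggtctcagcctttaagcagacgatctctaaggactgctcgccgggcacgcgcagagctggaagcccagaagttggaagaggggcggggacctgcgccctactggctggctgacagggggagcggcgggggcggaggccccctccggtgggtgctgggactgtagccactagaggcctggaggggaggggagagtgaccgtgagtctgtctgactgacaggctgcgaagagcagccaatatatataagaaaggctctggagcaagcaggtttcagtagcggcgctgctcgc
*Gja5* (chr3:97032152-97032451, plus strand): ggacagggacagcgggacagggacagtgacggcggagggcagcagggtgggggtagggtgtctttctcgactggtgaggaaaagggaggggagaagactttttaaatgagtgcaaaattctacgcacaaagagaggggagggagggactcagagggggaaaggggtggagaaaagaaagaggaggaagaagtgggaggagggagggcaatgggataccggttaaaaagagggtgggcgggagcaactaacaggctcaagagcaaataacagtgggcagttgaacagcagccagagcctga
*Hey2* (chr10:30842734-30843033, minus strand): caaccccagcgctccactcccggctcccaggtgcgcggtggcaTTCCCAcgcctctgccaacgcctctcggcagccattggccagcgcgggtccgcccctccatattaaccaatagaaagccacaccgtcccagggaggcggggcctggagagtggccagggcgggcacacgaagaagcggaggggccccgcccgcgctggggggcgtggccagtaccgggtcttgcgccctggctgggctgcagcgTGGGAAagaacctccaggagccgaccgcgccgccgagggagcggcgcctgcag
The window of *Hey2* held 1 match on each strand, and those of *Dll4* and *Gja5* held 0. Over 27025 promoters of this length, 25.5% held at least 1 match on either strand. A match of these letters describes the window and is not evidence of binding.

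Arterial genes did not move together. Of 29 arterial genes, 13 had positive and 16 negative estimates (median -0.02). 3 were above WT in every library, *Dll4* and *Gja5* among them, and 0 below, against 4.56% and 4.39% of all genes. Of 12 venous genes, 8 had negative estimates (median -0.10) and 4 were below WT in every library, against 4.39% of all genes. The smallest p among them was that of *Aplnr*, the apelin receptor of veins and of the sinus venosus, at 48.9, 44.8 and 33.4 in *Dll4GOF;Tie2-Cre*, against 57.3, 55.4, 62.7 and 53.5 in WT (log2 fold change -0.45, standard error 0.11, adjusted p = 0.354). *Nrp2*, a co-receptor for VEGF-C, had 51.5, 54.2 and 51.3 in *Dll4GOF;Tie2-Cre*, against 57.5, 57.7, 61.1 and 59.8 in WT, and *Nt5e*, an ectonucleotidase, had 7.40, 8.98 and 7.10 in *Dll4GOF;Tie2-Cre*, against 9.40, 9.96, 10.5 and 9.04 in WT. In the other direction *Emcn*, the sialomucin of venous and capillary endothelium, had 56.3, 57.7 and 51.8 in *Dll4GOF;Tie2-Cre*, against 48.01, 45.5, 52.2 and 48.2 in WT (log2 fold change 0.19, adjusted p = 0.414), with 1 WT library above the lowest *Dll4GOF;Tie2-Cre* library. *Ephb4*, the venous receptor of ephrin-B2, was 158, 153 and 183 in *Dll4GOF;Tie2-Cre*, against 161, 161, 165 and 162 in WT (95% interval -0.11 to 0.14).

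Capillary genes had more negative than positive estimates: 19 of 27 had negative estimates (median -0.06). *Plvap* was the only one above WT in every library and 3 were below, against 4.56% and 4.39% of all genes. *Fabp4*, the fatty acid binding protein of capillary endothelium, had 127, 118 and 122 in *Dll4GOF;Tie2-Cre*, against 139.9, 149.8, 138 and 133 in WT (log2 fold change -0.20, standard error 0.048, adjusted p = 0.354). *Igfbp7* (-0.18) and *Meox2* were likewise below WT in every library, and the fatty acid transporter *Cd36* was 235, 213 and 199 in *Dll4GOF;Tie2-Cre*, against 267, 275, 226 and 219.5 in WT. Pan-endothelial genes split, 13 of 30 positive (median -0.01), with 3 above and 4 below WT in every library. *Pecam1* had 199, 195 and 209 in *Dll4GOF;Tie2-Cre*, against 201, 196, 202 and 205 in WT (95% interval -0.09 to 0.09). *Kdr*, the main VEGF receptor, was lower in every library at 189, 199 and 182 in *Dll4GOF;Tie2-Cre*, against 206, 204, 202 and 209.9 in WT, as was *Cd34* at 163, 169.5 and 152 in *Dll4GOF;Tie2-Cre*, against 178, 174, 183 and 174 in WT, whereas *Mmrn2* was higher at 95.7, 102 and 106 in *Dll4GOF;Tie2-Cre*, against 91.7, 93.9, 91.2 and 91.3 in WT. *Vegfa* overlapped, with 162, 115 and 223 in *Dll4GOF;Tie2-Cre*, against 141, 156, 133 and 157 in WT. No gene of these lists was called.

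Endocardial genes leaned the other way from venous and capillary genes. Of 18, 13 had positive estimates (median 0.11), and *Npr3*, the natriuretic peptide clearance receptor that marks endocardium, was 124, 130.2 and 132 in *Dll4GOF;Tie2-Cre*, against 117, 111, 117 and 124 in WT (log2 fold change 0.13, adjusted p = 0.454). *Tmem108* had 54.1, 55.05 and 55.8 in *Dll4GOF;Tie2-Cre*, against 43.03, 48.3, 44.5 and 53.1 in WT and *Gata4* had 236, 234 and 268 in *Dll4GOF;Tie2-Cre*, against 219, 219, 227 and 239 in WT. *Nrg1*, the endocardial growth factor for trabeculae, had low values, at 0.992, 1.04 and 0.772 in *Dll4GOF;Tie2-Cre*, against 1.419, 1.29, 1.37 and 1.92 in WT. It lay below WT in every *Dll4GOF;Tie2-Cre* library. *Plvap* is in both the capillary and the endocardial lists.

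Mural and matrix genes had mostly negative estimates. Of 22 smooth muscle and pericyte genes, 19 were negative (median -0.07) and 2 were below WT in every library, against 4.39% of all genes. They were *Abcc9* (199, 194 and 193 in *Dll4GOF;Tie2-Cre*, against 224, 233, 221 and 229 in WT) and the smooth muscle leiomodin *Lmod1* (2.58, 3.17 and 2.32 in *Dll4GOF;Tie2-Cre*, against 3.24, 3.53, 6.28 and 5.13 in WT). Whole ventricles were sequenced, so the values do not show which cells made these RNAs. *Rgs5*, a pericyte marker, had 83.7, 71.7 and 58.1 in *Dll4GOF;Tie2-Cre*, against 85.5, 87.4, 104 and 83.7 in WT, where the highest *Dll4GOF;Tie2-Cre* library and the lowest WT library met. *Acta2* (log2 fold change -0.02, 95% interval -0.14 to 0.09), *Tagln* (-0.02, -0.28 to 0.24) and *Notch3* (-0.15, -0.32 to 0.02) overlapped. The study states that the *Acta2* product is also made by cardiomyocytes and mesenchymal cells at this stage, so *Acta2* is not specific to mural cells here. Of 35 collagen and matrix genes, 29 were negative (median -0.13), and 11 of these had an unadjusted p under 0.05, against 5.26% of all genes. *Col6a3* had 145, 143 and 105 in *Dll4GOF;Tie2-Cre*, against 162, 169, 200.2 and 161 in WT (log2 fold change -0.41, adjusted p = 0.376), *Col15a1*, a vascular basement membrane collagen, had 113, 105 and 82.4 in *Dll4GOF;Tie2-Cre*, against 123, 121, 123 and 114 in WT, and *Col6a1* had 252, 236 and 227 in *Dll4GOF;Tie2-Cre*, against 260.3, 273, 277 and 254 in WT. *Ddr2*, the collagen receptor of cardiac fibroblasts, had 17.3, 17.2 and 16.8 in *Dll4GOF;Tie2-Cre*, against 20.4, 18.6, 26.7 and 20.6 in WT, while the fibroblast markers *Pdgfra* (87.7 to 93.1 in *Dll4GOF;Tie2-Cre*, 82.3 to 97.1 in WT) and *Tcf21* (26.6 to 30.6 in *Dll4GOF;Tie2-Cre*, 26.1 to 32.7 in WT) overlapped.

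In the myocardium, trabecular and calcium handling genes differed in direction. Of 16 trabecular genes, 11 were positive (median 0.06) and 3 were above WT in every library, *Nppa*, *Gja5* and *Cited1*, against 4.56% of all genes, while 1, *Nrg1*, was below. *Bmp10*, the trabecular BMP ligand, was 38.1, 40.2 and 45.5 in *Dll4GOF;Tie2-Cre*, against 39.2, 42.6, 34.2 and 43.5 in WT. Of 17 atrium and pacemaker genes, 11 were also positive (median 0.06) and 2 were above WT in every library. The part of atrial tissue in the trabecular values was not tested. Of 16 compact myocardium genes 0 were apart from WT in either direction (median 0.01). Of 30 calcium handling and ion channel genes, 20 were negative (median -0.06). *Ryr2*, the sarcoplasmic calcium release channel, had 403, 496 and 362 in *Dll4GOF;Tie2-Cre*, against 574, 557, 558 and 598 in WT (log2 fold change -0.45, standard error 0.084, adjusted p = 0.264), *Cacna1c* had 214, 227 and 212 in *Dll4GOF;Tie2-Cre*, against 274, 243, 255 and 267 in WT, and the calcium pump *Atp2a2* had 2626, 2696 and 2635 in *Dll4GOF;Tie2-Cre*, against 2987, 2899, 2946 and 2803 in WT. *Kcnip2*, a potassium channel subunit that increases with maturation, had 11.8, 6.58 and 8.49 in *Dll4GOF;Tie2-Cre*, against 15.4, 19.7, 14.6 and 10.5 in WT, with 1 *Dll4GOF;Tie2-Cre* library above the lowest WT library. Among 33 sarcomere genes, *Ttn*, the giant elastic filament, had 1759, 2036 and 1004 in *Dll4GOF;Tie2-Cre*, against 2256, 2484, 2169.5 and 2337 in WT, *Myom2* had 78.00, 55.3 and 59.1 in *Dll4GOF;Tie2-Cre*, against 85.3, 114, 94.8 and 75.6 in WT, and the fetal light chain *Myl4* had 1135, 1258 and 1225 in *Dll4GOF;Tie2-Cre*, against 1064, 1005, 1140.1 and 1029 in WT. The *Dll4GOF;Tie2-Cre* libraries were below WT for *Ttn* and overlapped for *Myom2* and *Myl4*.

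Long transcripts had lower values in 2 of the 3 *Dll4GOF;Tie2-Cre* libraries, among them several of the genes just named. Across 12874 protein-coding genes in 10 bins by the length of the longest transcript, the median log2 fold change was 0.06 in the shortest bin (median 1128.5 bases) and -0.10 in the longest bin (median 8447 bases), where 84.2% of genes were lower. In that longest bin, the median deviation from the mean of the 7 libraries was -0.08, 0.01 and -0.10 in *Dll4GOF;Tie2-Cre* libraries 2, 3 and 4, against 0.06, -0.01, 0.04 and 0.10 in WT libraries 1 to 4. *Dll4GOF;Tie2-Cre* library 3 thus did not share the deviation and WT library 2 lay on the other side of 0 from the rest of WT. After each library's dependence on length was removed, a fit chosen after the data were seen, 0 genes were called, *Ryr2* was at -0.26, *Ttn* at -0.13, *Cacna1c* at -0.09 and *Macf1*, a cytoskeletal linker, at -0.03 (from -0.28). *Dll4* stayed at 0.28, *Gja5* at 0.27, *Plvap* at 0.25, *Nppa* at 0.29, *Meox2* at -0.57, *Aplnr* at -0.45 and *Gt(ROSA)26Sor* at -0.80. In that fit the median of the calcium handling list was -0.02, of the venous list -0.06, of the collagen and matrix list -0.09, of the capillary list -0.09 and of the mitochondrially encoded genes -0.21. The Notch receptors were at -0.04, and the arterial list was at 0.01 (15 of 29 positive), on the other side of 0. What made the libraries differ by length was not tested.

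**Figure D4:**
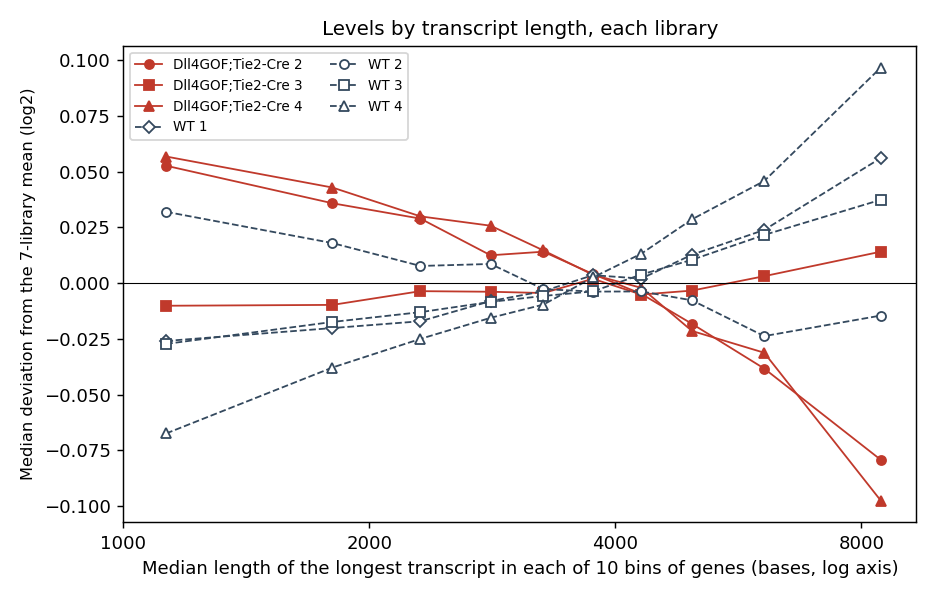
Median deviation of each library from the mean of the 7 libraries (log2) in 10 bins of protein-coding genes by transcript length (bases, log axis); red lines with filled symbols, *Dll4GOF;Tie2-Cre*; dashed dark lines with open symbols, WT. In the longest bin *Dll4GOF;Tie2-Cre* libraries 2 and 4 are lowest, at -0.08 and -0.10, and WT library 4 is highest, at 0.10.

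Lists of proliferation and biosynthesis leaned positive without any call. Of 40 cell cycle genes, 36 had positive estimates (median 0.11) against 50.3% of all genes, and 9 were above WT in every library, against 4.56% of all genes. They included the mitotic kinases *Aurka* (63.2, 67.9 and 66.1 in *Dll4GOF;Tie2-Cre*, against 57.9, 54.4, 52.00 and 58.3 in WT) and *Cdk1* (115, 119 and 124 in *Dll4GOF;Tie2-Cre*, against 115, 105, 106 and 103 in WT), the cyclin *Ccnb2* (80.5, 79.8 and 78.8 in *Dll4GOF;Tie2-Cre*, against 73.98, 73.4, 70.7 and 68.9 in WT) and survivin, *Birc5* (78.2, 79.7 and 76.5 in *Dll4GOF;Tie2-Cre*, against 73.8, 71.3, 67.6 and 67.6 in WT). *Mki67* had 308, 356 and 276 in *Dll4GOF;Tie2-Cre*, against 369, 339, 337 and 361 in WT, with overlap. Of the cycle's inhibitors, *Cdkn2d* had 56.6, 58.99 and 64.1 in *Dll4GOF;Tie2-Cre*, against 51.4, 48.5, 48.3 and 52.2 in WT and *Cdkn1c*, the imprinted inhibitor, had 367, 347 and 404 in *Dll4GOF;Tie2-Cre*, against 286, 317, 331 and 339 in WT, above WT in every library, whereas *Cdkn1a* (31.7, 32.9 and 56.7 in *Dll4GOF;Tie2-Cre*, against 32.1, 27.7, 32.7 and 35.6 in WT) and *Cdkn1b* (86.2, 73.7 and 107 in *Dll4GOF;Tie2-Cre*, against 88.9, 84.3, 83.3 and 77.3 in WT) overlapped. Of 22 cholesterol synthesis genes 21 were positive (median 0.12), with squalene synthase, *Fdft1*, at 30.2, 29.00 and 37.6 in *Dll4GOF;Tie2-Cre*, against 26.4, 25.6, 27.7 and 28.3 in WT. Of 21 unfolded protein and heat shock genes 20 were positive (median 0.10), and *Pdia6* (313, 319 and 314 in *Dll4GOF;Tie2-Cre*, against 262, 301, 293 and 286 in WT), *Pdia4* (152, 163 and 153 in *Dll4GOF;Tie2-Cre*, against 127, 148, 144 and 139 in WT), *Xbp1* and *Calr* were above WT in every library.

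The hypoxia list rested on 1 library. Of 33 HIF targets 28 were positive (median 0.14), but 0 had an unadjusted p under 0.05. *Dll4GOF;Tie2-Cre* library 4 was the highest of the 7 for *Slc2a1*, the glucose transporter (239, 224 and 394 in *Dll4GOF;Tie2-Cre*, against 208, 195, 220.2 and 289 in WT), and for *Bhlhe40* (52.8, 38.4 and 134 in *Dll4GOF;Tie2-Cre*, against 40.4, 31.6, 40.1 and 58.1 in WT), while libraries 2 and 3 overlapped WT. Without library 4 the list's median was -0.05. *Ldha* (1718, 1826 and 1924 in *Dll4GOF;Tie2-Cre*, against 1670.4, 1741, 1615 and 1744 in WT) and *Pdk1* (294, 319.6 and 324 in *Dll4GOF;Tie2-Cre*, against 336, 353, 322 and 325 in WT), the enzymes that keep pyruvate out of mitochondria, had opposite signs, and the glycolytic enzymes *Gapdh* (598, 561 and 638 in *Dll4GOF;Tie2-Cre*, against 538, 524, 524 and 505 in WT) and *Eno1* (1481, 1435 and 1635 in *Dll4GOF;Tie2-Cre*, against 1405, 1348, 1303 and 1407 in WT) were above WT in every library. Of 13 mitochondrially encoded transcripts 12 were negative (median -0.16). They took 5.04%, 4.99% and 4.604% of counts in *Dll4GOF;Tie2-Cre*, against 5.597%, 5.65%, 5.06% and 5.04% in WT, so that the highest *Dll4GOF;Tie2-Cre* share and the lowest WT share met. *Acsl1*, which activates fatty acids for oxidation, had 158, 133 and 142 in *Dll4GOF;Tie2-Cre*, against 188, 201, 161 and 164 in WT, and 24 of 30 fatty acid oxidation genes were negative (median -0.05).

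**Figure D5:**
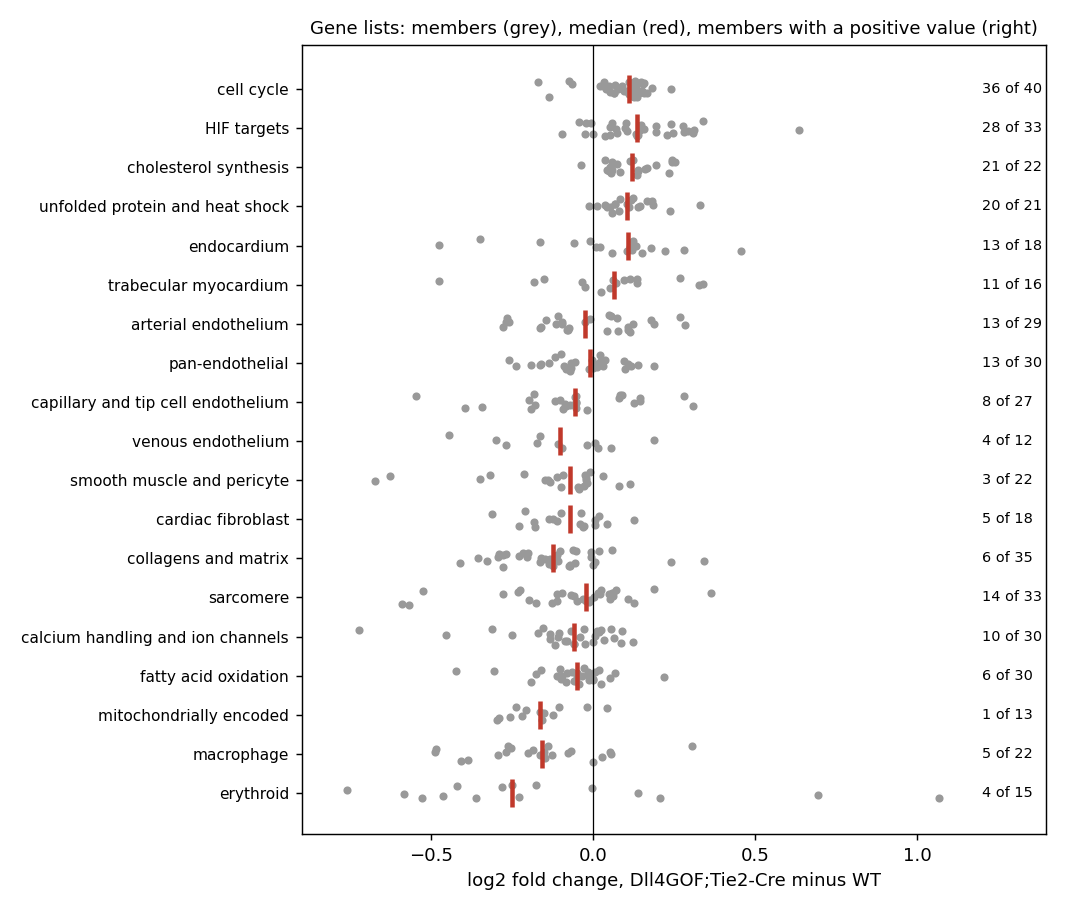
Log2 fold changes (*Dll4GOF;Tie2-Cre* minus WT) of the measured members of 19 gene lists (grey points) with their medians (red), and on the right the number of members with a positive estimate of those measured. Medians run from 0.14 for HIF targets to -0.25 for erythroid genes, and 0 members were called.

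Lists of blood cell genes had negative medians. Of 15 erythroid genes 11 were negative (median -0.25), and their summed level was 4824 to 5345 in *Dll4GOF;Tie2-Cre* and 4699 to 10238 in WT. The adult globin *Hbb-bs* had 1345, 1355 and 1494 in *Dll4GOF;Tie2-Cre*, against 2370.1, 1479, 1755 and 3135 in WT, and *Alas2*, the first enzyme of erythroid heme synthesis, had 28.2, 37.7 and 35.05 in *Dll4GOF;Tie2-Cre*, against 71.2, 36.1, 49.7 and 82.2 in WT. WT libraries 1 and 4 were the highest of the 7 for both. The embryonic globins *Hbb-y* (54.6, 69.3 and 95.8 in *Dll4GOF;Tie2-Cre*, against 17.3, 24.2, 45.5 and 67.6 in WT) and *Hba-x* (20.9, 19.9 and 26.9 in *Dll4GOF;Tie2-Cre*, against 10.95, 8.71, 14.6 and 24.5 in WT) had the opposite sign, also with overlap; they were chosen after their values were seen. Of 22 macrophage genes 17 were negative (median -0.16) and the summed level was 182 to 213 in *Dll4GOF;Tie2-Cre* and 199 to 262 in WT. *Cpa3*, a mast cell protease, had 1.79, 2.21 and 1.87 in *Dll4GOF;Tie2-Cre*, against 3.19, 3.39, 4.70 and 3.87 in WT (log2 fold change -0.80, adjusted p = 0.319), with no overlap. The T cell marker *Cd3e* was not among the genes in the table, and the pan-leukocyte gene *Ptprc* had 2.86, 2.16 and 1.57 in *Dll4GOF;Tie2-Cre*, against 2.70, 3.11, 3.24 and 3.18 in WT. The part of blood content in the vascular values was not tested.

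The other E15.5 ventricle experiment of the series targeted *Dll4* with *Cdh5-CreERT* (3 mutant libraries and 4 WT of its own, 3 embryos each). The study's methods describe tamoxifen induction for that line and none for *Tie2-Cre*. The experiments thus also differ in Cre line and in the timing of deletion or expression. Such differences cannot be told apart here from gain against loss of *Dll4*. The difference of the 2 effects was tested in 1 limma fit over 13562 shared genes, with no level compared across the tables. It was called for 44 genes (0.324%). Of these, 40 had opposite signs in the experiments, and 16 of the 40 had an unadjusted limma p under 0.05 in *Dll4GOF;Tie2-Cre*. Choosing genes by a large difference of the effects favours opposite signs, so these counts are not evidence of opposed effects. The share with opposite signs over all shared genes was not counted. Without the mean-variance trend 1 gene was called, and it was none of those named below. In all 44 the loss effect was the larger one, and in the loss experiment alone 160 of 13897 genes were called (1.15%). *Dll4* was 8.11, 20.7 and 9.53 in *Dll4flox;Cdh5-CreERT* libraries 2, 3 and 4, against 27.98, 23.2, 25.04 and 28.6 in WT libraries 1 to 4 of that experiment. In the loss fit alone its adjusted p was 0.0507. Its gain and loss effects differed by 1.41 on the log2 scale (adjusted p = 0.0439), a call that was lost without the trend (adjusted p = 0.121) and with the replicate block (adjusted p = 0.0642). *Fabp4* (-0.20 with gain and 0.71 with loss, adjusted p of the difference = 0.00718), *Cd34* (-0.14 with gain and 0.34 with loss, adjusted p = 0.0149), *Aplnr* (-0.45 with gain and 0.45 with loss, adjusted p = 0.0225) and *Acsl1* (-0.31 with gain and 0.36 with loss, adjusted p = 0.0356) were on the lower side with gain and the higher side with loss. *Myom2* (-0.52 with gain and 0.85 with loss, adjusted p = 0.0225) was as well, and *Cdkn1c* (0.23 with gain and -0.38 with loss, adjusted p = 0.0332) was the other way round. *Gja5*, *Plvap* and *Nppa* were not called for a difference (adjusted p = 0.0708, 0.0989 and 0.971). The count rested on single libraries: it was 459 without *Dll4flox;Cdh5-CreERT* library 3, which kept the most *Dll4*, and 2 to 21 without any 1 of the other 13. The difference for *Dll4* had an adjusted p of 9.68e-07 without that library and of 0.0658 to 0.131 without any 1 of the others.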

How the data were processed

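Ventricles of E15.5 embryos were pooled (3 embryos per library) and polyA RNA was sequenced. Per the labels and the study's methods, reads were trimmed with Cutadapt 1.6 (reads under 30 bp discarded), aligned to the GRCm38 transcriptome of Ensembl 76 and quantified with RSEM, for which the sources give different releases. The deposited signal values are the authors' normalized counts: each is a whole number plus 0.5 times 1 step per library (within 0.01 for 100% of values), that is, CPM of a normalized library size. Recovered totals were 14392366 to 19876031 per library. Tables of the 2 experiments were normalized separately, and 3 other tables of the series were not used.
Values were compared as log2(value + 0.5) by the two-sided moderated test of limma 3.58.1 (R 4.3.3), whose variances followed a trend on the mean, with Benjamini-Hochberg adjustment over all 13737 genes and a threshold of 0.05. A filter of 1 in 3 libraries removed 0 genes. Fold changes on this scale understate the change of low genes. Pools are the replicates, and no label says that they share a litter. The fits were tested on simulated data. Some named items are not reported here. Members and the 51 gene lists were chosen with earlier results of these data known. Named genes were *Dll4*, *Gt(ROSA)26Sor*, Notch ligands, receptors and targets, genes the study follows, up to 4 members per list ranked by p, and, as fewer than 10 genes were called in either direction, the first 10 by p in each; *Dst*, *Macf1*, *Mki67*, *Hbb-y*, *Hba-x*, *Tom1* and *Gm10184*, and *Thumpd3* and *Jagn1* beside *Rosa26*, were named outside that rule or after their values were seen. Transcript length and GC are those of the longest GENCODE M21 transcript, and their fits and the Y-linked covariate were chosen after the data were seen.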

Additional observations from a re-analysis of the deposited data

Results flagged for a closer look

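Among the 4 WT libraries, 1 stood far from the other 3 for 4 of the named genes. The check covered *Dll4* and 99 other named genes. Chance alone marks about 1 in 20 groups, so a count of 4 is near what chance gives. *Mmrn2* had a highest WT value of 93.9 (library 2), *Nrarp* a lowest WT value of 40.1 (library 2), *Tom1* a highest of 43.3 (library 1) and *Gm10184* a highest of 2.60 (library 1).
For 7 named genes the effect of *Dll4* gain differed from that of *Dll4* loss by the limma test of the difference. None of the 7 was called without the mean-variance trend, and 6 were called with the replicate block, *Dll4* being the exception. The differences of the log2 fold changes, gain minus loss, were 1.41 for *Dll4*, 0.61 for *Cdkn1c*, -1.37 for *Myom2*, -0.91 for *Fabp4*, -0.90 for *Aplnr*, -0.67 for *Acsl1* and -0.47 for *Cd34*.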

How the results depend on the processing

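Leaving out 1 library at a time gave 0 to 29 genes called in *Dll4GOF;Tie2-Cre* against WT (29 without *Dll4GOF;Tie2-Cre* library 3) and 0 to 2 called members of the gene lists. *Dll4* had a log2 fold change of 0.24 to 0.32 and was not called under any alternative run. Among the named genes, *Ryr2* (-0.58), *Lama2*, *Fry*, *Dst* and *Macf1* were called without *Dll4GOF;Tie2-Cre* library 3, *Gm10184* without library 4 and *Tom1* without WT library 1. The 0 calls stood without the trend, with robust variances, library quality weights, quantile normalization, median centring, no filter, the upper 75% of genes, a pseudocount of 1, a threshold of 0.01, a fold limit of 0.5 and the length, GC and Y-linked fits. With the replicate number as a block, 1 gene was called (*Tom1*). Same-numbered libraries had correlated deviations of 0.20, -0.03 and 0.23, and not every library was closest to its own number, so the numbers were not taken as pairs.
The gain and loss effects differed for 44 genes, 1 without the trend, 37 with the replicate block, and 2 to 459 without 1 library. Estimates near 0 changed sign, and the cause was not tested. With the length fit *Notch1* was 0.0298 and *Hes1* -0.00176. With length and GC *Notch1* was 0.0107, *Hes1* -0.00268 and *Mfng* -0.00221. With the Y-linked covariate *Acta2* was 0.0254, *Heyl* 0.0229, *Pecam1* 0.0338 and *Tagln* 0.118. With quality weights *Ephb4* was -0.00485, and *Pecam1* was 0.000524 after median centring and 0.000911 with the block. Without 1 library, *Acta2* ran from -0.0616 to 0.00117, *Bmp10* from -0.0208 to 0.106, *Cdkn1b* from -0.0633 to 0.201, *Ephb4* from -0.0628 to 0.0655, *Hes1* from -0.0344 to 0.103, *Hey1* from -0.0122 to 0.249, *Hey2* from -0.0319 to 0.157, *Heyl* from -0.0701 to 0.0024, *Mfng* from -0.0326 to 0.153, *Nrarp* from -0.0421 to 0.168, *Pecam1* from -0.0277 to 0.0203, *Tagln* from -0.0977 to 0.0904 and *Vegfa* from -0.104 to 0.376. The planned count-based tests were not run on these normalized values.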

Other observations

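A pair of genes, chosen after their values were seen, were present in some libraries and at or near 0 counts in others of the same group. *Tom1*, an endosomal sorting adaptor, had 24.2, 22.6 and 39.6 in *Dll4GOF;Tie2-Cre*, against 43.3, 0.0350, 0.0292 and 0.409 in WT. *Tom1* also varied within the groups of the loss experiment. There it had 39.1, 0.0615 and 0.118 in *Dll4flox;Cdh5-CreERT* libraries 2, 3 and 4. WT libraries 1 to 4 of that experiment had 40.6, 39.2, 38.7 and 1.31. *Gm10184* had 76.5, 138 and 1.171 in *Dll4GOF;Tie2-Cre*, against 2.60, 0.0350, 0.0292 and 0.0315 in WT. Neither was called with all 7 libraries, and the cause was not tested.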
